A study of Drosophila melanogaster with 8 samples.

Results

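Cuticle protein genes of the Cpr family were followed across 8 arrays of RNA from Drosophila melanogaster heads. A member was any gene whose platform annotation gave a single symbol made of Cpr and a digit, read by its probe set with the highest mean over the 8 arrays. This gave 66 genes from 67 probe sets, out of 11982 genes with a single symbol on the array. Cpr47Ef alone had a second probe set, and 4 probe sets that carry a Cpr symbol beside another symbol were left out.

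The arrays cover 4 strains of adult flies kept for 3 days in 12 h of light and 12 h of dark, each collected at ZT4, in the light phase, and at ZT16, in the dark phase. The control w1118 was set against a knockout in the same background (w1118 ; mir959-962-KO), which by its name removes a part of the cluster of miRNAs miR-959 to miR-964. A strain with the driver alone (yw ; tim-gal4/CyO), called the driver control here, was set against flies that also carry a transgene of the cluster (yw ; tim-gal4, UAS-mir-cluster/CyO), called overexpression here. Both yw strains therefore carry the driver, which is active in cells that use the timeless promoter, and the CyO balancer chromosome. Each strain stands for 1 line, and each condition has 1 array of RNA from heads and no replicate. The age and sex of the flies are not given in the labels.

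The insect cuticle is a layered material of chitin fibres and proteins that the epidermis secretes. Proteins of the Cpr family carry the Rebers and Riddiford motif, which binds chitin, and the family is large because different body parts and stages use different members. In adult flies new cuticle layers are laid down in a daily rhythm under the control of a clock in the epidermis. In the head, cuticle forms the capsule, the bristles, the mouthparts and the corneal lenses of the eye.

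Values are log2 intensities with a lowest value of 2.32 on every array, and a member is called detected on an array at a log2 value of at least 4. A value near the lowest is not quantitative, and probes differ in affinity, so levels were compared between arrays and never between genes. Of the 66 members, 9 were detected on all 8 arrays, 8 on some arrays and 49 on none. For 48 members every value was below 3, and for 43 of these it was below 2.5. The members detected on all 8 arrays were Cpr65Au, Cpr72Ec, Cpr67B, Cpr49Ae, Cpr47Ee, Cpr51A, Cpr62Bb, Cpr73D and Cpr11B. Most of the family was thus not detected in these heads.

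**Figure D1:**
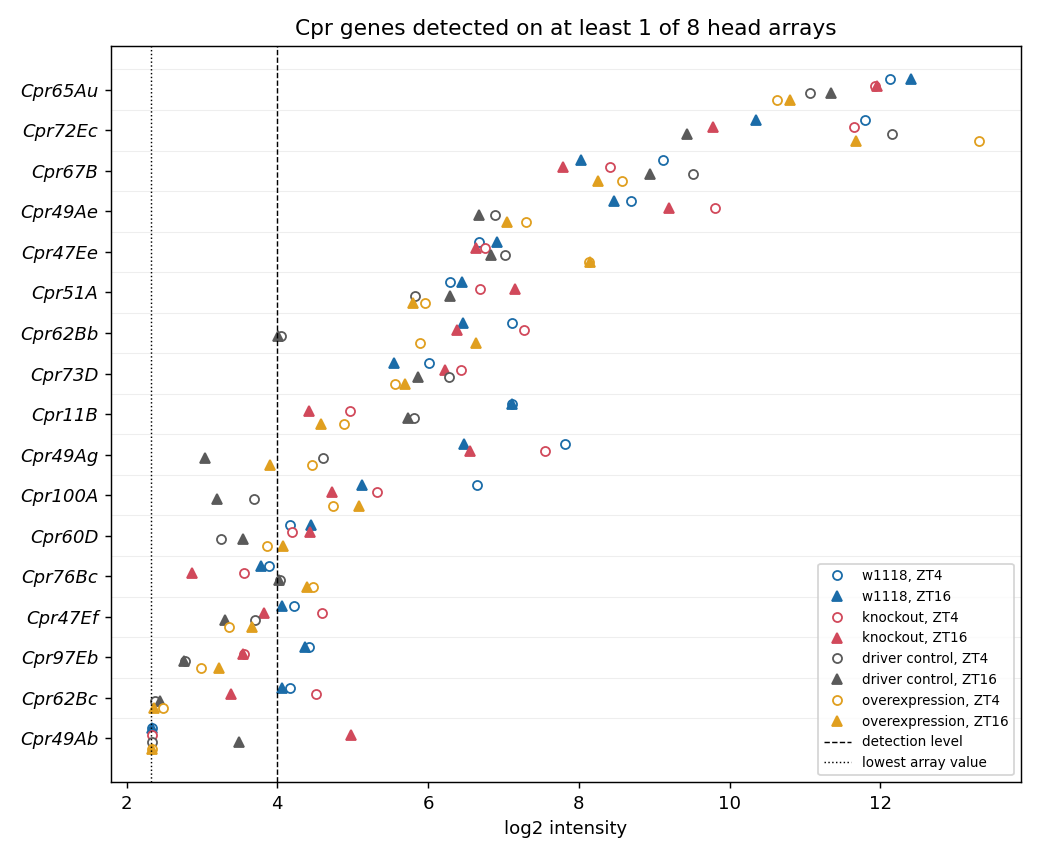
Log2 intensity of the 17 Cpr genes detected on at least 1 array, with 1 point per array, coloured by strain (circles ZT4, triangles ZT16), the detection level of 4 dashed and the lowest value of 2.32 dotted. Cpr65Au and Cpr72Ec lie far above the detection level on all arrays, and Cpr49Ab is above it on 1 array only.

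For the tests, a gene had to reach 4 on at least 2 of the 8 arrays. This left 16 members (24.2%), against 6859 of the 11982 single-symbol genes (57.2%). The members nearest to the limit were Cpr62Bc, whose second highest value was 4.17, just inside, and Cpr66D and Cpr49Ab, with 3.53 and 3.49, just outside. Of the 16, 4 reached the detection level only on one side of the strain backgrounds. Cpr47Ef, Cpr62Bc and Cpr97Eb did so on arrays of w1118 or the knockout only, and Cpr76Bc on arrays of the yw strains only. Such members passed because of the strains in which they are high, so the counts of strain differences below describe them and support nothing further.

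Cpr genes lie in groups along the chromosomes, and their names give the cytological position. In a RefSeq gene table (Release 6), 3 members at 72E are direct neighbours, and Cpr72Ec alone was detected while Cpr72Ea and Cpr72Eb stayed at or below 2.38. Likewise, 4 members at 76B are direct neighbours, and Cpr76Bc alone was detected, with the others at or below 2.35. At 62B, Cpr62Bb and Cpr62Bc were detected and Cpr62Ba was at 2.32.

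In the larger groups, too, detected members lay beside members that were not detected. Of 8 members at 49A, Cpr49Ae and Cpr49Ag passed the filter, and of 7 at 47E, Cpr47Ee and Cpr47Ef did. At 65A, Cpr65Au was detected and 3 other members stayed at or below 2.41. None of the 4 members at 64A, 3 at 65E, 3 at 67F, 3 at 78C or 2 at 50C was detected on any array. The groups at 64A and 65E hold no other gene between their members in the RefSeq table.

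Before the comparisons, the tissue was checked. The 6 photoreceptor genes measured (trp, trpl, inaD, inaC, Arr1 and Arr2) were between 8.77 and 14.32 on all arrays, while the antennal genes lush, Obp28a and Orco were at or below 3.53 and so not detected on any. The neuronal genes elav and nSyb were at 6.35 or more on all arrays, and brp was detected on 6 of 8. The ZT16 arrays of the knockout and of the driver control carried markers of tissues outside the head. There 15 of 16 accessory gland genes were detected on each, 14 of 17 testis genes on each, and 10 and 8 of 20 gut enzymes. On the other 6 arrays these lists had no detected gene, apart from 1 accessory gland gene (Acp98AB, 4.28) in the knockout at ZT4. The log2 of the summed accessory gland intensity was 13.82 and 13.22 on the 2 arrays against 6.39 to 6.68 elsewhere, that of the testis genes 10.84 and 10.82 against 6.49 to 6.53, and that of the gut enzymes 12.16 and 12.67 against 6.66. Of 10 genes listed for flight muscle, all were detected there and 7 elsewhere. Their summed levels overlapped, at 12.40 and 11.91 against 11.17 to 12.04, and include those 7 genes, detected on every array. Act88F, fln and TpnC4 were detected on the 2 arrays alone. In the knockout and driver control at ZT16, Act88F read 7.56 and 5.05 against 3.25 to 3.33 elsewhere. There fln read 7.59 and 6.89 against 2.34 to 2.36, and TpnC4 8.55 and 7.14 against 2.33 to 2.36. Of 15 ovary and eggshell genes none was detected.

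One member followed these arrays. Cpr49Ab, picked after its values were seen, read 4.98 in the knockout at ZT16 and 3.49 in the driver control at ZT16, against 2.34 on each of the other 6. It was the only one of 66 members at least 2-fold higher on both arrays than on each other array, and it did not pass the filter. Among the 8300 probe sets that passed, 372 (4.48%) had this pattern. That share is not like the count over 66 members, most of which did not pass, and a probe set can pass through these 2 arrays alone. Of the 16 members that passed, none was higher on both arrays than on all others, and Cpr72Ec was lower on both. The part of the other tissues in the values of these members was not tested. In RNA from whole heads, fewer cells of a type and less RNA per cell cannot be told apart.

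The model for the comparisons held strain and time as additive terms over all 8 arrays, fitted with limma, so its error comes from time changes that are unlike from strain to strain. A gene is called, or said to have risen or fallen, at an adjusted p under 0.05 over the 8300 probe sets that passed the filter. Errors of log2 differences are standard errors (SE) from this fit. The p-values measure only the spread between these 8 arrays.

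The largest called difference of a member in the knockout was in Cpr11B, a chitin-binding cuticle protein by its family. It read 7.11 at ZT4 and 7.11 at ZT16 in w1118, 4.96 and 4.42 in the knockout, 5.82 and 5.74 in the driver control and 4.88 and 4.58 under overexpression. The knockout and overexpression were each below the respective control at both times, while their own values overlapped. In the knockout Cpr11B fell by 2.42 on the log2 scale (SE 0.16, 5.36-fold, adjusted p = 0.00548 in limma), and by 2.16 and 2.69 at ZT4 and ZT16 taken singly. Under overexpression it fell by 1.05 (SE 0.16, 2.07-fold, adjusted p = 0.0143 in limma), and by 0.94 and 1.15 at the single times. The driver control itself lay below w1118 by a log2 difference of 1.33 (SE 0.16, adjusted p = 0.00566 in limma). The knockout and the transgene, which by their labels change the cluster in opposite ways, were both called lower than the respective control. The call under overexpression was lost without any 1 of the driver control and overexpression arrays (adjusted p from 0.0618 to 0.107 in limma).

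The time of collection moved Cpr11B little. Its log2 difference of ZT16 from ZT4 was -0.01 in w1118, -0.54 in the knockout, -0.08 in the driver control and -0.29 under overexpression (mean -0.23, SE 0.11, adjusted p = 0.310 in limma). A different time change was called neither in the knockout (-0.41, SE 0.22, adjusted p = 1.0 in limma) nor under overexpression (-0.09, SE 0.29, adjusted p = 0.995 in limma). Among the other 15 members that passed, the pattern over 8 arrays was most like that of Cpr11B in Cpr97Eb (Pearson r = 0.61), Cpr65Au (0.55), Cpr62Bc (0.41), Cpr67B (0.38) and Cpr49Ag (0.32). These are descriptions over 8 arrays that share 4 strains and 2 times, and none of them is close.

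**Figure D2:**
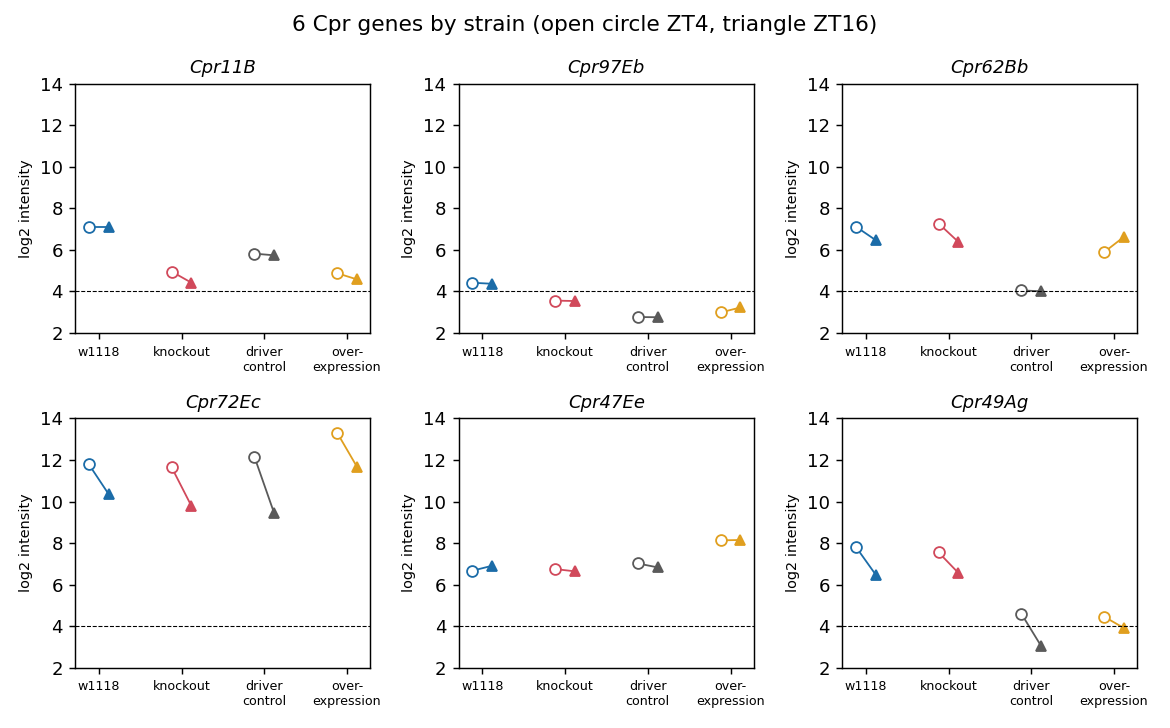
Log2 intensity of 6 Cpr genes by strain, with 1 array per point (open circles ZT4, triangles ZT16) and the detection level of 4 dashed. Cpr11B is at 7.11 on both w1118 arrays and between 4.42 and 4.96 on the knockout and overexpression arrays, and Cpr62Bb is near 4 only in the driver control.

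In the knockout, 2 of the 16 members (12.5%) were called, both lower, where 1.58% of all probe sets were called, 0.759% higher and 0.819% lower. The second was Cpr97Eb, which read 4.42 and 4.37 in w1118, 3.56 and 3.54 in the knockout, 2.77 and 2.76 in the driver control and 2.99 and 3.23 under overexpression. Only the w1118 values reached the detection level, so Cpr97Eb passed the filter only through the strain in which it is high. The count of 2 thus describes it and supports nothing further. Its fall of 0.85 (SE 0.12, adjusted p = 0.0453 in limma) thus ends at a level that is not quantitative. Calls over all probe sets became fewer without any 1 of the 8 arrays, and the call of Cpr97Eb was lost in each of these fits. That of Cpr11B was lost without either w1118 array, with differences of -2.57 and -2.28 and adjusted p-values of 0.0748 and 0.0883 in limma, and stood without each of the other 6. With both arrays that carry body-tissue markers left out, neither was called (Cpr11B -2.23, adjusted p = 0.311, and Cpr97Eb -0.79, adjusted p = 0.546 in limma), and 0 of all 8300 probe sets were.

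The members not called in the knockout included Cpr49Ae, at 8.69 and 8.46 in w1118 and 9.80 and 9.19 in the knockout. All knockout values of this gene lay above those of w1118, by a mean of 0.92 (SE 0.14, adjusted p = 0.0571 in limma). It was called with a filter at 5, with trended and robust moderation and with a term for the arrays with body-tissue markers, while Cpr97Eb was not called in the last 2 settings and not tested in the first. Cpr100A differed by -0.86 (SE 0.42, adjusted p = 0.424 in limma), with -1.34 at ZT4 and -0.39 at ZT16. The median difference of the 16 members was -0.13, beside -0.10 over all probe sets that passed. For Cpr60D and Cpr62Bb the knockout lay within 0.15 of w1118 on the log2 scale at both times.

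Under overexpression, 7 of the 16 members (43.8%) were called, 4 higher and 3 lower, where 20.5% of all probe sets were called, 14.3% higher and 6.18% lower. Cpr62Bb rose most. It read 4.05 and 4.01 in the driver control, 5.89 and 6.63 under overexpression, 7.12 and 6.47 in w1118 and 7.27 and 6.38 in the knockout. The driver control was the low strain at both times. Overexpression lay below w1118 and the knockout at ZT4 and just above them at ZT16. The difference was 2.23 (SE 0.40, 4.69-fold, adjusted p = 0.0216 in limma), with 1.84 at ZT4 and 2.62 at ZT16. It was 2.86 without overexpression at ZT4 and 1.60 without overexpression at ZT16, where the call was lost (adjusted p = 0.0884 in limma), as it was without either driver control array (0.102 and 0.106).

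Cpr72Ec, which is found in the corneal lens, read 12.16 and 9.43 in the driver control and 13.31 and 11.67 under overexpression, against 11.79 and 10.35 in w1118 and 11.65 and 9.78 in the knockout. The overexpression array was the highest of the 4 strains at each time. The rise was 1.70 (SE 0.32, 3.24-fold, adjusted p = 0.0235 in limma), with 1.16 at ZT4 and 2.24 at ZT16. The control array at ZT16 is one of those with body-tissue markers, and the difference was 1.16 without it (adjusted p = 0.0657 in limma) and 1.11 without both such arrays (adjusted p = 0.126 in limma).

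Cpr47Ee read 7.02 and 6.83 in the driver control and 8.13 and 8.15 under overexpression, with 6.64 to 6.91 on the 4 arrays of w1118 and the knockout. It was high on the overexpression arrays alone, and neither w1118 (difference from the driver control -0.14, adjusted p = 0.472 in limma) nor time separated the other arrays. Its rise was 1.21 (SE 0.14, 2.31-fold, adjusted p = 0.00852 in limma). Cpr60D rose by 0.57 (SE 0.10, adjusted p = 0.0186 in limma), from 3.25 and 3.55 to 3.87 and 4.08, values that straddle the detection level. Beside Cpr11B, Cpr67B fell by 0.82 (SE 0.19, adjusted p = 0.0414 in limma), and Cpr65Au by 0.48 (SE 0.11, adjusted p = 0.0413 in limma). These calls were fragile. Without either knockout array those of Cpr67B, Cpr65Au, Cpr60D and Cpr72Ec were lost, and without either w1118 array that of Cpr65Au. With a term for the 2 arrays with body-tissue markers, neither Cpr67B nor Cpr65Au was called. Without single arrays the differences were -1.04 to -0.60 for Cpr67B and -0.55 to -0.42 for Cpr65Au.

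In Cpr62Bb and Cpr60D both w1118 and overexpression were above the driver control, and both comparisons share the arrays of the driver control. Such a difference from 1 control line cannot be told apart from a difference between lines. In Cpr11B and Cpr65Au, w1118 was above the driver control and overexpression below it. Cpr100A, not called, showed 3.69 and 3.20 in the driver control and 4.74 and 5.09 under overexpression (1.47, SE 0.42, adjusted p = 0.0652 in limma). The median over the 16 members was 0.36, beside 0.10 over all probe sets that passed.

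The count of 7 depended on single arrays. It was 7 without either w1118 array, with Cpr100A in place of Cpr65Au, where 15.1% of all probe sets were called, and 3 without either knockout array, where 10.3% were. It was 2 and 0 without the driver control at ZT4 and ZT16, where 3.77% and 2.64% of all probe sets were called, and 1 and 0 without overexpression at ZT4 and ZT16, where 3.20% and 1.58% were. The calls thus became fewer over all probe sets as well. Without the 2 arrays with body-tissue markers it was 0, with 0 calls among all 8300 probe sets. The differences of the 7 genes kept their signs there (Cpr62Bb 2.19, Cpr72Ec 1.11, Cpr47Ee 1.05, Cpr60D 0.60, Cpr65Au -0.45, Cpr67B -0.75 and Cpr11B -1.01). That fit has 1 residual degree of freedom. Of 10 genes listed for flight muscle, 2 were also called higher under overexpression, where 14.3% of all probe sets were. They were up (0.76, SE 0.14, adjusted p = 0.0223 in limma) and flr (0.83, SE 0.17, adjusted p = 0.0286 in limma). Both were detected on all arrays, while the listed genes fln and TpnC4 were at 2.33 to 2.35 under overexpression. With so few genes, nothing particular to flight muscle can be read from this count. None of 9 head markers was called, where 20.5% of all probe sets were. The part of these cell types in the differences of the members was not tested.

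**Figure D3:**
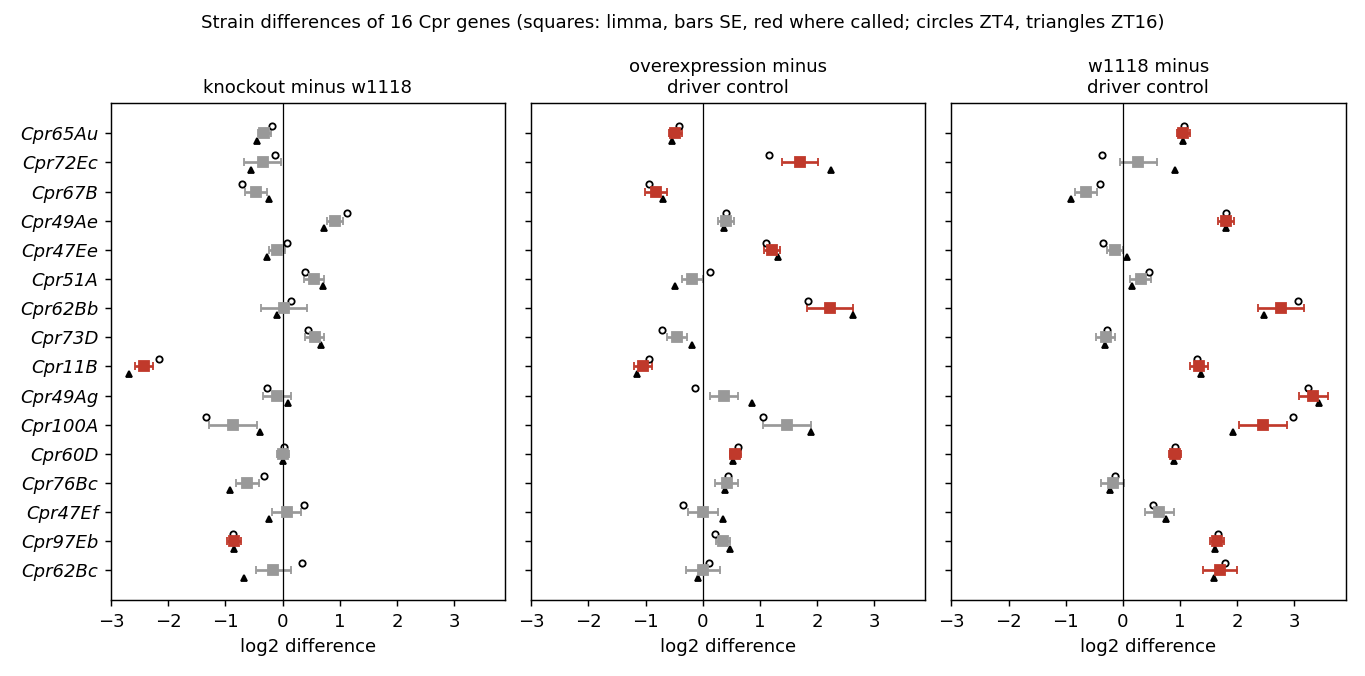
Log2 differences of the 16 tested Cpr genes in 3 strain comparisons, with squares and bars for the limma estimate and its SE (red where called) and small symbols for the single times (circles ZT4, triangles ZT16). In the knockout 2 genes are called, under overexpression 7, and between the control strains 9, all higher in w1118.

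More members were called between the control strains than in either manipulation. Between w1118 and the driver control, 9 of the 16 members (56.2%) were called, all higher in w1118, where 30.9% of all probe sets were called, 19.9% higher and 11.0% lower. Of these 9, Cpr62Bc and Cpr97Eb had passed the filter only through arrays of w1118 or the knockout. The largest difference was in Cpr49Ag, which read 7.82 and 6.48 in w1118, 7.55 and 6.56 in the knockout, 4.60 and 3.04 in the driver control and 4.46 and 3.91 under overexpression. No value of the w1118 and knockout arrays overlapped those of the yw strains. The difference between the controls was 3.33 (SE 0.25, 10.05-fold, adjusted p = 0.00210 in limma), against a control value at ZT16 that is below the detection level.

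Next came Cpr62Bb at 2.77 (SE 0.40), Cpr100A at 2.45 (SE 0.42) and Cpr49Ae at 1.80 (SE 0.14), with adjusted p-values of 0.00917, 0.0139 and 0.00217 in limma. The driver control values of Cpr100A, 3.69 and 3.20, are below the detection level, so the size of its difference is not quantitative, and it was 1.80 without w1118 at ZT4 and 3.09 without w1118 at ZT16. Cpr62Bc was at 4.17 and 4.06 in w1118 and between 2.37 and 2.49 in the yw strains, close to the lowest value, so that its difference of 1.70 is not quantitative. The other calls were Cpr97Eb (1.64), Cpr11B (1.33), Cpr65Au (1.06) and Cpr60D (0.91). Members not called differed by -0.65 (Cpr67B, adjusted p = 0.0565 in limma) to 0.64 (Cpr47Ef, adjusted p = 0.117 in limma). With trended and robust moderation Cpr67B was called too, lower in w1118, where 36.7% of all probe sets were called in either direction. The single direction of the calls thus depended on the setting. In the reported fit the median over the members was 0.98, beside 0.11 over all probe sets that passed.

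Some markers of neurons and muscle were also called between the control strains, where 30.9% of all probe sets were called. With so few genes in each list, nothing particular to neurons or muscle can be read from the counts. Of 9 head markers that passed the filter, the neuronal genes elav (1.33, SE 0.22, adjusted p = 0.0124 in limma) and brp (1.46, SE 0.35, adjusted p = 0.0319 in limma) were higher in w1118, and nSyb was lower (-0.86, SE 0.20, adjusted p = 0.0293 in limma). The 6 photoreceptor genes were not called. The log2 of the summed head marker intensity was 15.14 and 15.07 in w1118 and 15.28 and 15.05 in the driver control. Of 10 genes listed for flight muscle, up was higher in w1118 (1.43, SE 0.14, adjusted p = 0.00355 in limma) and 9 were not called. Summed levels of the 10 were 12.04 and 11.82 in w1118 and 11.17 and 11.91 in the driver control. The part of these cell types in the differences of the members was not tested.

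Set against both yw strains together, 8 of the 16 members had all 4 values of w1118 and the knockout above all 4 yw values, where 15.2% of all probe sets did. They were Cpr49Ae, Cpr49Ag, Cpr51A, Cpr60D, Cpr65Au, Cpr47Ef, Cpr62Bc and Cpr97Eb, of which the last 3 reached the detection level on one side only. For Cpr51A the margin was small, since the lowest value on one side and the highest on the other were both 6.29. Cpr76Bc alone had the opposite order, at most 3.89 against at least 4.02, where 13.7% of all probe sets did. The 4 strains differ in y, in the driver and in the balancer as well as in general background, which cannot be told apart here.

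Leaving out single arrays gave 6 to 9 calls between the controls, while the share called over all probe sets was between 9.08% and 22.9%. Cpr49Ag, Cpr49Ae, Cpr97Eb, Cpr60D, Cpr65Au and Cpr11B stayed called whichever 1 array was left out, while Cpr62Bb, Cpr62Bc and Cpr100A were lost without either array of the driver control (6 calls each). Cpr62Bb was also lost without w1118 at ZT4, and Cpr62Bc without either w1118 array. Without the 2 arrays with body-tissue markers the count was 0, as it was over all probe sets, and the 9 differences lay between 0.93 and 3.03.

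Day and night were compared over the 4 strains, each of which gives 1 pair of arrays. None of the 16 members was called in limma at ZT16 against ZT4, where 0.373% of all probe sets were called. An unadjusted p under 0.05 was found for 5 members and for 1371 of the 8300 probe sets. The largest difference was in the lens gene Cpr72Ec, whose values are given above. The log2 difference was -1.44 in w1118, -1.87 in the knockout, -2.72 in the driver control and -1.64 under overexpression. The mean of -1.92 (SE 0.22, 3.78-fold, adjusted p = 0.0536 in limma) missed the threshold narrowly, and w1118 and overexpression, whose arrays carry no body-tissue markers, showed the same sign.

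Cpr49Ag followed with -1.35, -0.98, -1.55 and -0.55 in the same order of strains (mean -1.11, SE 0.18, adjusted p = 0.0963 in limma). Cpr67B gave -1.08, -0.62, -0.57 and -0.32 (mean -0.65, SE 0.14, adjusted p = 0.149 in limma). These 3 genes had lower values at ZT16 in every strain. Cpr100A differed by -1.53 in w1118 but by 0.35 under overexpression (mean -0.56, SE 0.30, adjusted p = 0.338 in limma). With a stricter filter of 5 on at least 2 arrays, Cpr72Ec was called (adjusted p = 0.046 in limma), as were 0.741% of all probe sets. With trended and robust moderation Cpr72Ec, Cpr49Ag and Cpr67B were called (adjusted p = 0.0455, 0.0113 and 0.0265 in limma), as were 2.82% of all probe sets. No member was called at ZT16 against ZT4 in the other settings. For Cpr72Ec the adjusted p was 0.319 with no filter and 0.0654 after quantile normalization, both in limma. With a term for the 2 arrays with body-tissue markers its difference was -1.54 (adjusted p = 0.0833 in limma).

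**Figure D4:**
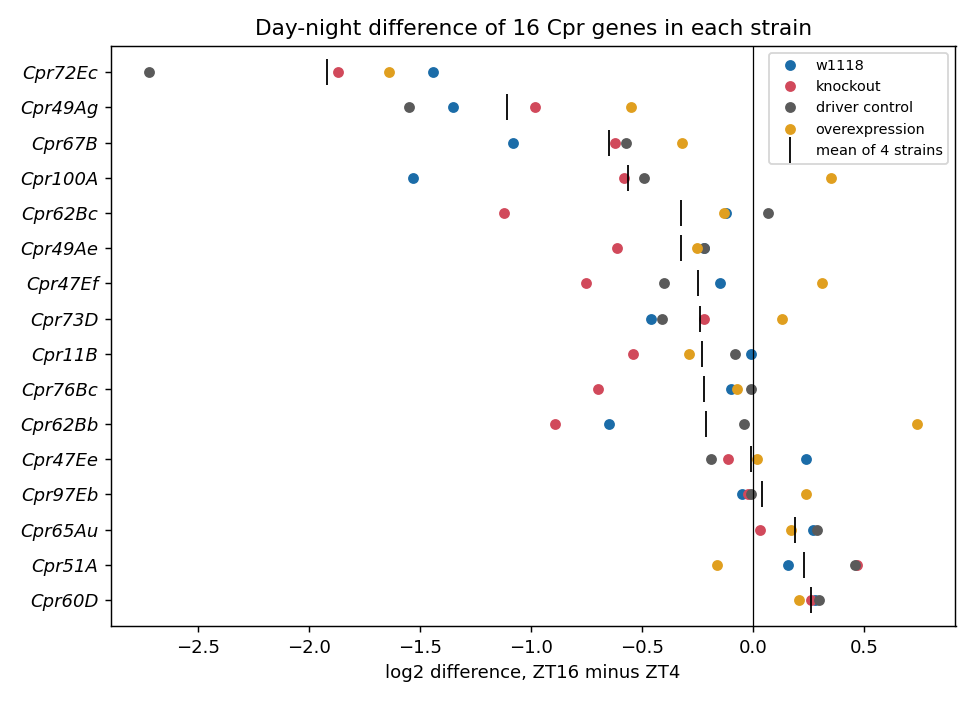
Log2 difference of ZT16 from ZT4 for the 16 tested Cpr genes, with 1 point per strain and a bar at the mean of 4 strains. Cpr72Ec, Cpr49Ag and Cpr67B lie below 0 in all 4 strains, with means of -1.92, -1.11 and -0.65, and most other genes lie near 0.

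In all, 6 of the 16 members were lower at ZT16 in all 4 strains, where 20.9% of all probe sets were, and 2 were higher in all 4, where 6.78% were. The lower ones were Cpr72Ec, Cpr49Ag, Cpr67B, Cpr49Ae, Cpr11B and Cpr76Bc, and the higher ones Cpr60D and Cpr65Au. Some of these differences were close to 0, such as -0.01 for Cpr11B in w1118. Those of Cpr76Bc were -0.10, -0.70, -0.01 and -0.07, and its w1118 and knockout values were all below the detection level. In Cpr60D the differences were small but alike, at 0.28, 0.26, 0.30 and 0.21 (mean 0.26, SE 0.07, adjusted p = 0.195 in limma). The median of the 16 members was -0.23, beside -0.08 over all probe sets that passed.

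Whether the time change differed in a manipulated strain was tested for each. In the knockout and under overexpression limma called 0 of 16 members and 0.0% of all probe sets. An unadjusted p under 0.05 was found for 2 members and 169 probe sets in the knockout, and for 1 member and 216 probe sets under overexpression. The largest estimates were -1.07 for Cpr62Bc in the knockout (SE 0.20, adjusted p = 1.0 in limma) and 1.26 for Cpr62Bb under overexpression (SE 0.39, adjusted p = 0.990 in limma). In Cpr62Bb the change was 0.74 under overexpression, against -0.65 (w1118), -0.89 (knockout) and -0.04 (driver control).

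Other cuticle genes were read from lists of genes outside the Cpr names. Of 56 further structural genes measured (Tweedle proteins, larval and pupal cuticle proteins, chitin-binding obstructor proteins and others), 7 passed the filter. None of the 7 was called at ZT16 or in the knockout, where 0.373% and 1.58% of all probe sets were. Under overexpression 2 rose, where 14.3% of all probe sets did, and 3 were higher in w1118 than in the driver control, where 19.9% were. With 7 genes, nothing particular to the list can be read from these counts. The first were the chitin-binding protein genes obst-A (1.12, SE 0.21) and obst-E (0.95, SE 0.16), with adjusted p-values of 0.0246 and 0.0196 in limma. The others were Gasp, a chitin-binding protein of the tracheal lining (2.10, SE 0.33), Vajk2 (1.74) and obst-A (1.66), with adjusted p-values of 0.0114, 0.0101 and 0.00662 in limma. Gasp read 8.75 and 6.53 in w1118, 7.91 and 6.91 in the knockout, 6.50 and 4.57 in the driver control and 6.45 and 5.32 under overexpression.

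Of 43 genes of chitin turnover and cuticle tanning measured, 23 passed the filter. At ZT16, where 0.157% of all probe sets rose, 1 did: Gfat1, which starts the hexosamine pathway that feeds chitin synthesis (0.90, SE 0.09, adjusted p = 0.0499 in limma). None was called in the knockout, where 1.58% of all probe sets were. With 23 genes, nothing particular to the list can be read from either count. Under overexpression 5 were called, close to the 20.5% of all probe sets. The imaginal disc growth factor gene Idgf5, whose family resembles chitinases, fell by 3.83 (SE 0.11, adjusted p = 0.000368 in limma), and yellow-f2 fell by 0.81. Idgf1 rose by 1.24, e by 0.58 and mmy by 0.45. Between the controls, 6 were higher in w1118 and 5 lower, where 19.9% and 11.0% of all probe sets were. The largest of these differences were in ple, the tyrosine hydroxylase (1.67, adjusted p = 0.0149 in limma), the chitin deacetylase-like gene Cda5 (1.44, adjusted p = 0.00566 in limma), e, which makes beta-alanyl dopamine (1.0, adjusted p = 0.005 in limma), and the chitinase gene Cht2 (0.97, adjusted p = 0.0131 in limma). The median differences between the controls were 0.02 for these 23 genes and 1.27 for the 7 structural genes.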

How the data were processed

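RNA from fly heads was hybridized to Affymetrix Drosophila Genome 2.0 arrays, per the labels. The deposited values are log2 intensities per probe set, made with GCRMA per the submitters' processing notes, with version and settings not stated; this method adjusts probe background and normalizes arrays together, and can compress low values. The table holds 18952 probe sets, of which 183 controls were left out. The array number limits the precision. Each array had 39.8% to 40.8% of the other probe sets at 4 or more.

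All 66 members matched a RefSeq gene ID under the same symbol. Model fits were made in R 4.3.3 (limma 3.58.1), tables and plots in Python 3.11.15 (matplotlib 3.10.9, numpy 2.4.6, pandas 2.3.3). The fit of the knockout against w1118 was run on simulated data with known changes in the knockout. Those data held no other strain, time or outside-tissue differences, so the run says nothing about such effects in the real arrays. The additive fit (strain and time) has 3 residual degrees of freedom and each time-change fit 2. P-values are two-sided, with Benjamini-Hochberg adjustment over 8300 probe sets in each of 6 comparisons.

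Named were Cpr11B, called members, the 12 with the highest means, the 4 largest differences per comparison and those detected in one strain but not another, and of each other list at most the 4 largest called differences per comparison (mmy beyond these). Members and lists were chosen with earlier results of these data known. Settings tried were the filter, quantile normalization, moderation, 1 probe set per gene, the arrays included, a term for the 2 arrays with body-tissue markers, no strain block and the detection level.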

Additional observations from a re-analysis of the deposited data

How the results depend on the processing

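Detection on all 8 arrays stayed within 1.5 times at levels of 3 and 5 and after quantile normalization, while members detected on at least 1 array went from 17 to 11 at a level of 5. Counts of called members changed most with the arrays used. With only the 4 arrays of a comparison they were 0 in the knockout, 0 under overexpression and 1 between controls (0.0%, 0.169% and 1.0% of all probe sets), and without the 2 arrays with body-tissue markers 0 in each of these. Without single arrays they were 0 to 1, 0 to 7 and 6 to 9, and 0 for time and for both time-change tests. With no filter, counts of called members were 0 in the knockout, 2 under overexpression and 1 for the time change of the knockout (Cpr49Ae). Of the 18769 probe sets then adjusted over, 0.16%, 3.45% and 1.36% were called in these comparisons. Quantile normalization left 1 in the knockout (1.5% of all). For ZT16 against ZT4, a filter at 5 gave 1 (0.741% of all probe sets) and trended and robust moderation 3 (2.82%), against 0.373% in the reported fit. The cause of these changes was not tested. Named differences kept direction in all settings run except Cpr11B's time change under overexpression, which ranged from -0.25 to 0.01 without single arrays and was 0.01 without either w1118 array. Of 517 such values, 105 lost and 9 gained a call. Without the 2 arrays, the time-change tests could not be fitted. Low signal limits Cpr97Eb, Cpr62Bc, Cpr47Ef, Cpr76Bc and Cpr60D, Cpr100A in the driver control and Cpr49Ag in the yw strains at ZT16.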

Other observations

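A lens gene outside the Cpr names, retinin, was looked up after the data were seen, since its product is a main protein of the corneal lens together with Cpr72Ec and Cpr66D. It read 13.55 at both times in w1118, 13.11 and 12.77 in the knockout, 12.37 and 11.80 in the driver control, and 12.36 and 12.13 under overexpression. It was higher in w1118 than in the driver control by 1.47 (SE 0.16, adjusted p = 0.00456 in limma) and was not called under overexpression (0.16, SE 0.16, adjusted p = 0.493 in limma) or at ZT16 (-0.28, SE 0.11, adjusted p = 0.292 in limma). Cpr72Ec was called under overexpression and not between the controls. Whether the genes differ in these changes was not tested. Cpr66D was not detected on any array, with values from 2.74 to 3.91.

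A probe set left out because it carries the symbols Obp57d and Cpr57A read 6.57 and 6.37 in w1118, 6.15 and 6.12 in the knockout, 5.56 and 5.36 in the driver control and 5.70 and 6.02 under overexpression. Another probe set with the same symbols lay between 2.36 and 2.93, so it is not known here which transcript the first reads. The second probe set of Cpr47Ef was at 2.33 on all 8 arrays, while the one used here reached 4.59.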
